A study of Mus musculus with 34 samples.

Results

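The genes described here encode proteins that the epithelium of the epididymis secretes or passes to sperm: the cystatins Cst8, Cst11 and Cstdc2, the beta defensin Defb20, the ribonuclease-like Rnase10, the protease inhibitor Spink12, the glutathione peroxidase Gpx5, the cysteine-rich secretory protein Crisp1 and the membrane protein Adam7. They were measured in mouse epididymal fat on 34 two-colour arrays. They were chosen on the HF0 against STD values of these same arrays, where several were among the most extreme, so that contrast is described and not tested. Of the 9 genes, 7 had 1 probe each in the array annotation (Cst11, Cstdc2, Rnase10, Defb20, Spink12, Adam7 and Gpx5), out of 25344 probes, 22879 features and 18617 genes with a symbol in all. Cst8 and Crisp1 were not analysed here.

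HF1, HF3 and HF4 mice were successive generations of a line kept on a high fat diet, with an HF2 generation between them that was not analysed here. HF0 mice, the first on that diet, were born to STD mice. The reversal mice (HF1-REV, HF3-REV, HF4-REV) had the parents of the matching HF generation but ate normal food, and STD mice ate a normal diet. The labels do not give strain, age or the number of animals behind an extract, and p-values reflect how extracts varied, which may be technical variation only. Experiment 1 (12 arrays, RNA extracted with Trizol) held the 6 pairings of HF4, HF3, HF0 and STD. Experiment 2 (22 arrays, Qiagen reagents) held the 6 pairings of HF4, HF3, HF1 and HF0, HF0 with STD on 4 arrays, and each of HF1, HF3 and HF4 with its reversal group. Every pairing was hybridised in both dye orientations, on 2 arrays unless stated.

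The epididymis is the coiled duct in which sperm mature, and its lining secretes different proteins in successive regions, from the initial segment through the caput and corpus to the cauda. Cystatins are a family of cysteine protease inhibitors, beta defensins are small cationic antimicrobial peptides, and secretion of both by the duct depends largely on androgen. Epididymal fat is attached to this organ and to the testis. In bulk tissue such as this, fewer cells of a type and less RNA per cell cannot be told apart.

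The stretches of 250 bases upstream of the transcription start are shown for 4 genes to let the members be compared at the sequence level. They come from RefSeq (build GRCm38.p6), which gave 1 start for each of these genes except Rnase10, with 2, of which the first listed is shown. They lie at chr2:148850935-148851184 on the minus strand (Cstdc2), chr14:51007501-51007750 on the plus strand (Rnase10), chr2:152476813-152477062 on the plus strand (Defb20) and chr13:21292687-21292936 on the minus strand (Gpx5). Capitals mark TGTTCT or its reverse complement AGAACA, an arm of the androgen response element. The searches also covered AGGAAG, a core bound by ETS factors, and TATAAA, the TATA box, on both strands.
Cstdc2: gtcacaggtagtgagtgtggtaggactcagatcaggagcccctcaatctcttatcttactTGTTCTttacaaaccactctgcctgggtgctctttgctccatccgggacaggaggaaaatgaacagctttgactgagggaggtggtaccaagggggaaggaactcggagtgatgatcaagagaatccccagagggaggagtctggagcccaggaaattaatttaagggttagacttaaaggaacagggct
Rnase10: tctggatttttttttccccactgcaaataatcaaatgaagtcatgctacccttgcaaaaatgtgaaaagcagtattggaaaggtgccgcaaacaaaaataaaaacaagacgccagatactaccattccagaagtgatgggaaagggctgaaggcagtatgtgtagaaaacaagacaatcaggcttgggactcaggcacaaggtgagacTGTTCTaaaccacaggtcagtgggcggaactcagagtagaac
Defb20: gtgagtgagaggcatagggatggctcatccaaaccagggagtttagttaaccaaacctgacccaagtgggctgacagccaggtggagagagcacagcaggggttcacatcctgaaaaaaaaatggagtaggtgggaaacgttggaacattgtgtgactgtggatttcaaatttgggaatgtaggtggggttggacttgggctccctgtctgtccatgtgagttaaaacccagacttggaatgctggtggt
Gpx5: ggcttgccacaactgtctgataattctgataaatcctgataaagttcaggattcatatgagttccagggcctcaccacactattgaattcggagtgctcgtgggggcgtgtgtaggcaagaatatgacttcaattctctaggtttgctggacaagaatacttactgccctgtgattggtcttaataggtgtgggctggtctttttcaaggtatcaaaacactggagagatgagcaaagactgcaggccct
Cstdc2 and Rnase10 each held 1 match to TGTTCT, a motif present in 16.1% of the 32851 RefSeq promoters of this length. The stretches of Defb20 and Gpx5 held none of the 3 motifs, and AGGAAG (29.5% of promoters) and TATAAA (12.4%) were not found in any of the 4.

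Values are log2 ratios with the first-named extract on top, read as Cy5 over Cy3, and every array's median was set to 0. The sources used here do not say which dye was the numerator of the deposited ratios. If it was Cy3, every sign below turns, so signs are read only against each other, and no value is read as more or less RNA. A ratio gives no level, so it could not be checked from these values whether the labelled fat held adipocyte transcripts in every extract.

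The swapped arrays agreed across features with a Pearson correlation between -0.31 and 0.57 (median 0.20 over 17 swaps), and 2 swaps, HF1 with HF1-REV and HF3 with STD, were below 0. Where 3 extracts were all paired with each other, the direct ratio should equal the sum over the third extract. In experiment 2 the direct and summed ratios correlated with r between 0.69 and 0.82 in the 4 such triangles, and in experiment 1 with 0.65, 0.61, 0.46 and, for HF3 against STD over HF0, -0.02. The ratios of experiment 1 thus did not close over all 4 of its extracts, and the tests of the members are given with and without that experiment. Genes are not independent replicates, and these correlations are descriptions.

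In experiment 2 all 7 measured genes were negative on all 4 arrays of HF0 with STD. Cst11, a cystatin-related protein made by the duct epithelium, had -7.04, -8.06, -5.91 and -5.36 in HF0 over STD. Rnase10, which lacks ribonuclease activity and is made in the initial segment in mice, had -6.26, -7.53, -5.87 and -6.31. Cstdc2, a cystatin domain protein, had -6.22, -6.80, -5.15 and -5.34. Each of these 3 genes, like Spink12, lay beyond 5 log2 units on every array. Defb20 had -6.18, -7.12, -4.88 and -4.39. Spink12, a Kazal-type inhibitor of serine proteases, had -6.07, -6.34, -5.90 and -5.70, the narrowest range of the 7. Adam7, which vesicles carry from the epithelium to the sperm surface, had -4.49, -5.58, -4.14 and -4.14. Gpx5, a peroxidase without selenium that protects sperm in the caput, stood closest to 0 with -2.72, -2.86, -1.80 and -1.77.

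By mean ± SD over the 4 arrays the order was Cst11 (-6.59 ± 1.20), Rnase10 (-6.49 ± 0.72), Spink12 (-6.01 ± 0.27), Cstdc2 (-5.88 ± 0.77), Defb20 (-5.64 ± 1.24), Adam7 (-4.59 ± 0.68) and Gpx5 (-2.29 ± 0.58). Neighbours in this order from Cst11 to Defb20 differed by less than the larger of their SDs. The 4 arrays of Gpx5 did not overlap with those of Adam7. All 7 members lay past 1 log2 unit with the same sign on every array, as did 3.29% of all features, and the members' median was -5.88 against 0.02 for all features. The choice of members used this contrast, so nothing is read from that count. For each member, arrays with HF0 in Cy3 and STD in Cy5 had a mean further from 0 than the other orientation. The differences of means ran from -2.02 (Defb20) to -0.40 (Spink12).

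**Figure D1:**
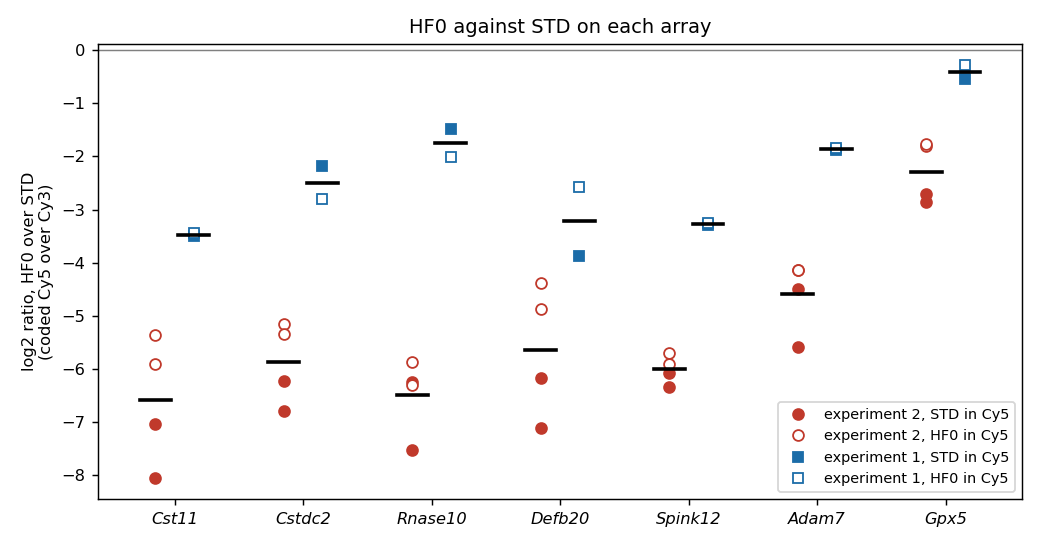
Log2 ratio of HF0 over STD for the 7 measured genes (vertical axis, coded Cy5 over Cy3), with 1 point per array. Circles are the 4 arrays of experiment 2, squares the 2 arrays of experiment 1, filled points have STD in Cy5, and bars are means. Experiment 2 lies further from 0 than experiment 1 for every gene, and Gpx5 stands closest to 0 in both.

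Experiment 1 gave smaller values with the same sign. Cst11 had -3.44 and -3.51 in HF0 over STD, Spink12 had -3.26 and -3.29, and Defb20 had -2.57 and -3.87. Cstdc2 had -2.81 and -2.18, Adam7 had -1.85 and -1.88, and Rnase10 had -2.01 and -1.49. Gpx5 was near 0 at -0.27 and -0.54. Of the 7 members 6 lay past 1 log2 unit on both arrays, as did 0.581% of all features, and the members' median was -2.49 against 0.01. Rnase10 changed its place most: its mean was -1.75 in experiment 1 and -6.49 in experiment 2, while Spink12 had -3.27 and -6.01. The arrays of the experiments did not overlap for any member.

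The later generations were paired with STD in experiment 1 only, and the members divided there. In HF4 over STD, Cst11 had -2.97 and -2.84, Defb20 had -2.52 and -2.22, Cstdc2 had -1.40 and -2.01 and Rnase10 had -1.06 and -0.78. Spink12 (-0.46 and 0.13), Adam7 (-0.09 and 0.33) and Gpx5 (-0.66 and 0.09) had 1 array on each side of 0. Thus 3 of 7 members lay past 1 log2 unit on both arrays, against 3.98% of features. In HF3 over STD none of the 7 members did, against 0.437% of features, and their means lay between -0.37 (Adam7) and 0.11 (Cst11).

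These direct ratios did not close with those of HF0. Cst11 stood at -3.53 in HF3 against STD when summed over HF0, because HF3 with HF0 gave -0.01 and -0.09, but at 0.11 on the direct arrays. Over the triangles of experiment 1 the members' median gap between direct and summed ratio ran from 0.33 to 1.85, and over those of experiment 2 from 0.14 to 0.51. Across all features it ran from 0.24 to 0.30 and from 0.20 to 0.26. The largest gap of experiment 2 was 1.92, for Spink12 in HF4 against HF0 over HF3, where HF3 with HF0 gave 1.05 and -0.13. These ratios do not settle whether the extracts on the STD arrays of experiment 1 are the ones their labels name, so the values of HF0, HF3 and HF4 with STD there hold only as labelled.

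**Figure D2:**
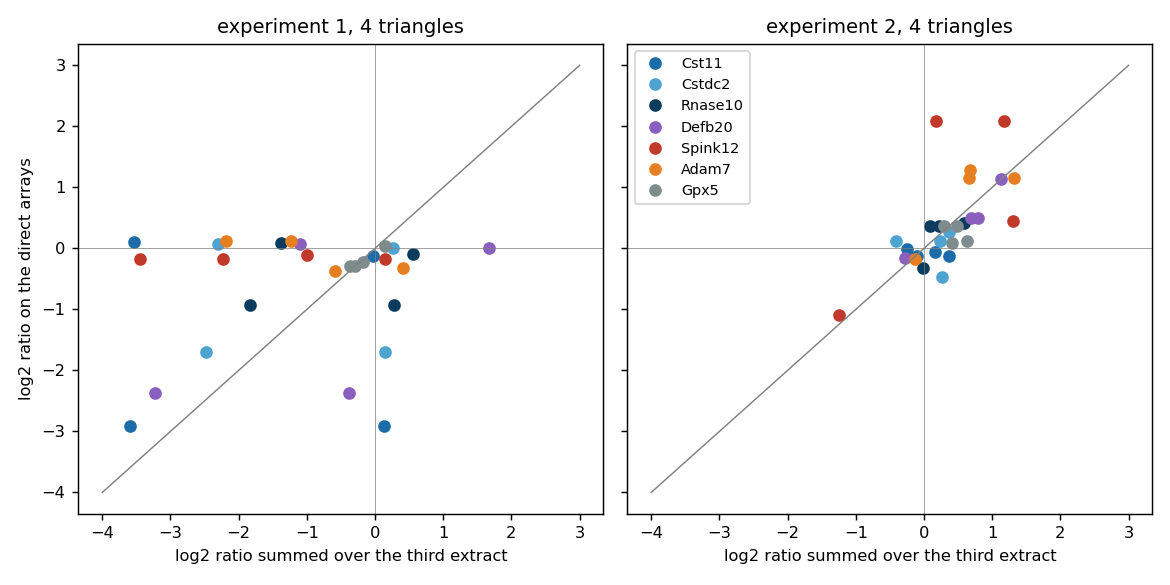
Log2 ratio on the direct arrays (vertical axis) against the log2 ratio summed over the third extract (horizontal axis), for each gene in the 4 triangles of each experiment. The grey diagonal marks equality. The farthest point from it is Spink12 with a gap of 1.92 in experiment 2, and Cst11 with 3.64 in experiment 1.

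Among the other extracts of experiment 2, the comparisons of HF1 and HF3 with HF0 ask how the line changed after its first high fat generation. HF1 over HF0 was positive on both arrays for Spink12 (1.89 and 2.64), Defb20 (0.97 and 0.94), Adam7 (0.91 and 0.77) and Gpx5 (0.39 and 0.40). Cst11 (-0.04 and -0.06), Rnase10 (-0.27 and -0.11) and Cstdc2 (0.38 and -0.45) stayed near 0. The limma fit over both experiments used group values by least squares, and those of experiment 1 rest partly on its arrays with STD. The ratios on which the members were chosen thus enter these tests: for Cst11 the group values of experiment 1 were 0.53 in HF3 and -0.30 in HF0, while the direct arrays gave -0.01 and -0.09. For this reason the members' tests are also given without those arrays wherever that changes a call, and on experiment 2 alone, where HF0 with STD affects only the error. Tests of other genes below are from the fit over both experiments unless stated, so the same ratios enter them. In limma's fit over both experiments 0 of 7 members passed an adjusted p of 0.05 in HF1 against HF0, as did 0% of the 22879 features, and 3 members had an unadjusted p under 0.05. On experiment 2 alone, a fit chosen after the data had been seen and whose error is the spread between hybridisations of the same extracts, Spink12 (2.28 ± 0.30, SE, adjusted p = 0.0018 by limma), Adam7 (1.11 ± 0.16, adjusted p = 0.0029) and Defb20 (0.89 ± 0.16, adjusted p = 0.0073) passed. That fit called 15.8% of all features.

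HF3 was paired with HF0 in both experiments. Defb20 had 1.13 and 1.15 in HF3 over HF0 in experiment 2, and 2.04 and 2.21 in experiment 1. Adam7 had 1.67 and 0.90, and 1.12 and 1.43. Both genes were positive on 4 of 4 arrays and passed in limma's fit over both experiments, Defb20 at 1.54 ± 0.23 (adjusted p = 0.0257) and Adam7 at 1.12 ± 0.19 (adjusted p = 0.036, SE, n = 2 experiments each). They were 2 of 7 members, against 2.46% of features. Spink12 had 1.05 and -0.13 in experiment 2 and 2.09 and 2.47 in experiment 1, and at 1.78 ± 0.40 it did not pass (adjusted p = 0.108). Cst11, Cstdc2, Rnase10 and Gpx5 lay between 0.20 and 0.32 with adjusted p of at least 0.525. When the arrays of experiment 1 that hold STD were left out, Gpx5 stayed at 0.23 ± 0.13. The sign of the others turned, to -0.14 ± 0.12 for Cst11, -0.02 ± 0.12 for Cstdc2 and -0.01 ± 0.15 for Rnase10. Quantile normalization left 0 members past the threshold, scale normalization 1, and the fit with STD 0. Without the arrays of experiment 1 that hold STD, Defb20 passed (1.33 ± 0.16, adjusted p = 0.0106 by limma) and Adam7 did not (1.06 ± 0.28, adjusted p = 0.155), so 1 of 7 members was called, against 2.99% of features. The call of Adam7 was also lost without replicate 1 of HF3 with HF0 of experiment 2 (1.02) and without replicate 1 of HF1 with HF0 (1.11). With experiment 2 alone 3 members passed, Spink12 among them (1.15 ± 0.30, adjusted p = 0.0279), against 21.3% of features.

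HF4 against HF0 gave no member past the threshold (5.83% of features were), although 3 had an unadjusted p under 0.05. The values were 1.05 ± 0.40 for Spink12 (adjusted p = 0.291), 0.75 ± 0.19 for Adam7 (adjusted p = 0.086) and 0.63 ± 0.23 for Defb20 (adjusted p = 0.28, limma, SE, n = 2 experiments). The experiments differed here: Adam7 had 0.73 and 1.56 in HF4 over HF0 in experiment 2, but -0.37 and -0.27 in experiment 1, and Spink12 had 2.32 and 1.86, but -0.38 and 0.03. In experiment 2 alone Adam7 (1.07 ± 0.16, adjusted p = 0.0027), Spink12 (1.38 ± 0.30, adjusted p = 0.0183) and Defb20 (0.62 ± 0.16, adjusted p = 0.0366) passed, and 13.5% of features.

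Between HF1, HF3 and HF4 no member passed in limma's fit over both experiments. Spink12 had -0.48 and -0.10 in HF4 over HF3 in experiment 2, but -2.08 and -2.17 in experiment 1. None of the 7 passed in HF4 against HF3 (0.918% of features, 1 member at an unadjusted p under 0.05), HF3 against HF1 (1.85%, 0 members) or HF4 against HF1 (5.79%, 1 member). The widest values were those of Spink12, at -1.33 ± 0.52 in HF4 against HF1 (adjusted p = 0.21) and -0.60 ± 0.52 in HF3 against HF1 (adjusted p = 0.705), and of Defb20, at -0.92 ± 0.23 in HF4 against HF3 (adjusted p = 0.212). Experiment 2 alone put Spink12 past the threshold in HF3 against HF1 (-1.13 ± 0.30, adjusted p = 0.0455, 11.5% of features). It did so for Rnase10 in HF4 against HF1 (0.49 ± 0.13, adjusted p = 0.0208, 27.8% of features) and in HF4 against HF3 (0.44 ± 0.13, adjusted p = 0.0456, 19.9% of features).

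The reversal groups ask what a normal diet did in animals of the same descent. All 7 members had a positive mean in HF1 over HF1-REV. Spink12 had 3.54 and 4.18, Adam7 had 1.87 and 2.29 and Defb20 had 1.64 and 1.39. These 3 of 7 members lay past 1 log2 unit on both arrays, against 0.24% of all features. Cst11 had 0.11 and 0.15, and Cstdc2 had 0.02 and 0.01, so the cystatins stayed near 0 where Spink12 reached its highest value outside the STD pairings. Over both experiments limma called 0 of 7 members and 0.00437% of features, with 4 members at an unadjusted p under 0.05: Adam7 stood at 2.08 ± 0.26 (adjusted p = 0.0958), Spink12 at 3.86 ± 0.57 (adjusted p = 0.132) and Defb20 at 1.52 ± 0.33 (adjusted p = 0.282). Each group has n = 1 extract here, assumed to vary like the others. On simulated data this fit found none of the changed genes in HF4 against HF4-REV, where 1 group also had a single extract. The simulation did not match the data, as the same fit called 21.2% of features in the real HF4 against HF4-REV. The count of 0 does not show that the groups were alike. Leaving out either array of this pairing left a single dye orientation, so no count is read from those fits. In experiment 2 alone the 3 genes passed, with adjusted p = 0.0072 for Spink12 and Adam7 and 0.0307 for Defb20, against 0.647% of features.

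In HF3 over HF3-REV all 7 means were positive too, but not all arrays. Cstdc2 (0.52 and -0.15) and Gpx5 (-0.09 and 0.37) lay on both sides of 0, and Cst11 (0.08 and 0.16) was near 0. Adam7 had 1.56 and 0.99, and it passed at 1.40 ± 0.24 in limma's fit over both experiments (adjusted p = 0.0341), as 1 of 7 members against 3.73% of features. Defb20 had 0.26 and 1.44, Rnase10 had 0.67 and 0.39 and Spink12 had 0.42 and 0.39, and none of these passed (adjusted p from 0.105 to 0.362). No member lay past 1 log2 unit on both arrays, against 1.95% of features. The call of Adam7 held in experiment 2 alone (1.28 ± 0.23, adjusted p = 0.015, 6.11% of features) but was lost in the fit with STD (1.80) and without replicate 1 of HF3 with HF0 of experiment 2 (1.45). Without the arrays of experiment 1 that hold STD 0 of 7 members passed, with Adam7 at 1.45 ± 0.37 (adjusted p = 0.109 by limma), against 3.22% of features. Fits that left out an array of HF3 with HF3-REV held a single dye orientation, and no count is read from them.

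HF4 against HF4-REV separated the members by sign. Cst11 had -1.36 and -1.35 in HF4 over HF4-REV, Cstdc2 had -0.75 and -0.84, Defb20 had -0.57 and -1.26 and Rnase10 had -0.39 and -0.40. Spink12 had 1.57 and 2.32 and Adam7 had 1.50 and 1.12, while Gpx5 had 0.49 and -0.13. Past 1 log2 unit on both arrays were 3 of 7 members, 1 negative and 2 positive, against 6.72% of features. In limma's fit over both experiments Cst11 passed at -1.50 ± 0.32 (adjusted p = 0.0247) and Adam7 at 1.09 ± 0.24 (adjusted p = 0.0263), as 2 of 7 members against 21.2% of features. Defb20 missed the threshold at -1.07 ± 0.30 (adjusted p = 0.0516), as did Cstdc2 at -0.86 ± 0.27 (adjusted p = 0.0681) and Spink12 at 1.52 ± 0.52 (adjusted p = 0.0849). Experiment 2 alone put all 5 of these past the threshold, 3 negative and 2 positive, against 28.3% of features. Scale normalization, quantile normalization and the fit with STD left 0 members past it, with 2067, 1489 and 2563 features called. Leaving out either array of this pairing left a single dye orientation, so no count of members is read from those fits. Without the arrays of experiment 1 that hold STD 3 of 7 members passed, all negative, against 17.9% of features. These were Cst11 (-1.41 ± 0.15, adjusted p = 0.0039 by limma), Cstdc2 (-0.82 ± 0.16, adjusted p = 0.0226) and Defb20 (-1.02 ± 0.21, adjusted p = 0.0269), while Adam7 did not pass (0.94 ± 0.37, adjusted p = 0.124).

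**Figure D3:**
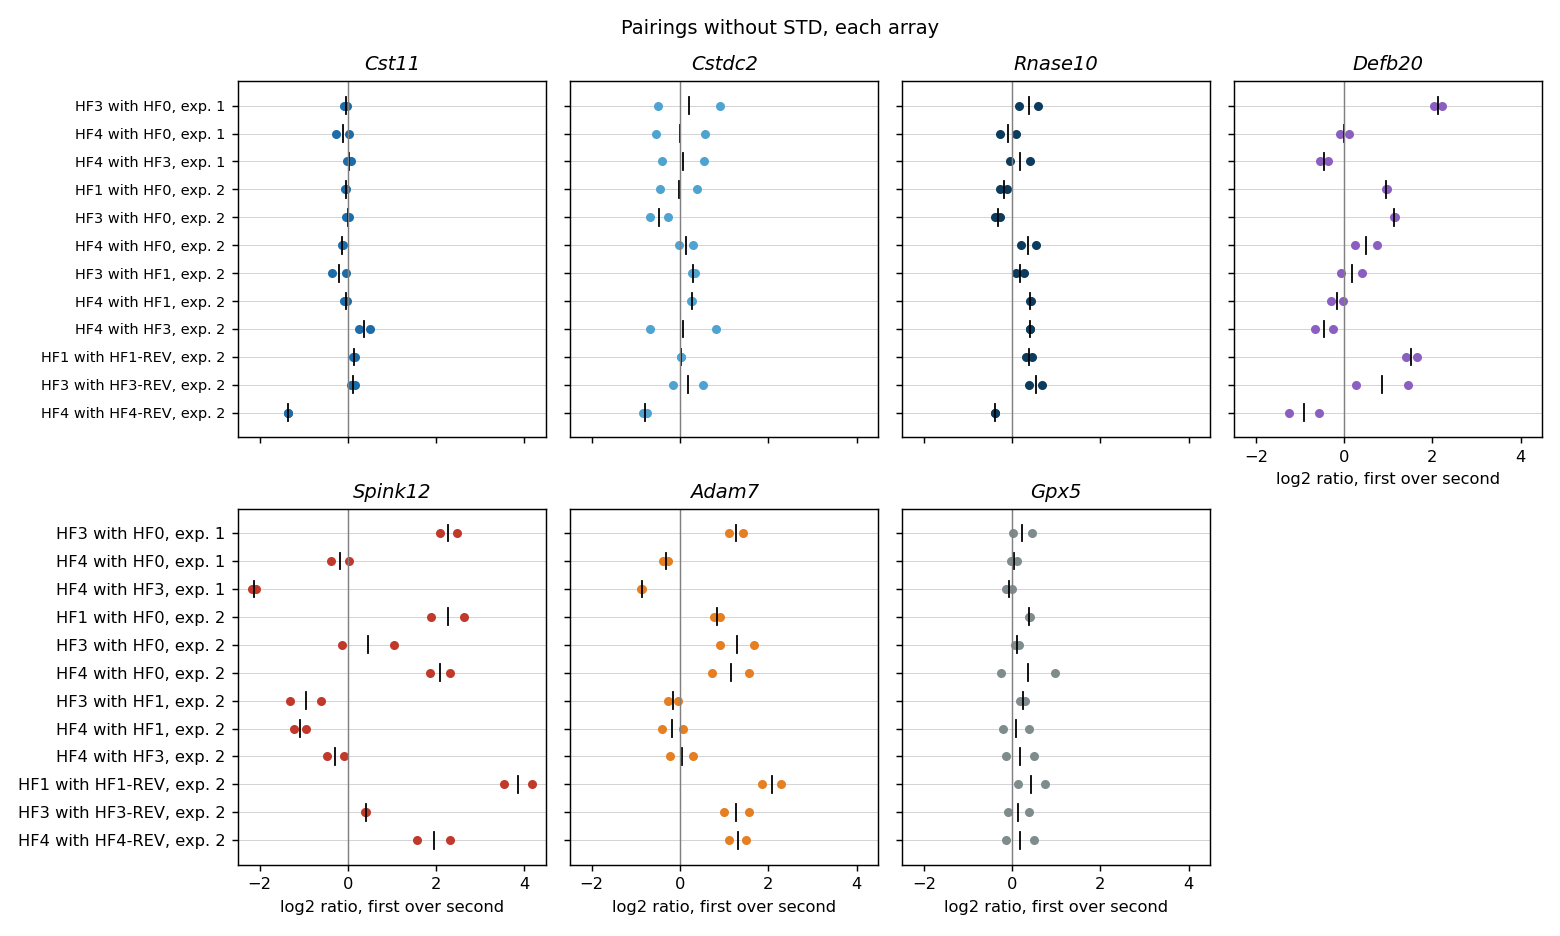
Log2 ratio of the first-named over the second-named group (horizontal axis) on each array of the 12 pairings without STD, with 1 panel per gene, points for arrays and bars for means. Cst11 lies past 1 log2 unit in HF4 with HF4-REV alone among these 12 pairings (-1.36 and -1.35), while Spink12 and Adam7 are positive in HF1 with HF1-REV and HF4 with HF4-REV.

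By extract, the least squares values of experiment 2 are relative to the mean of HF0, HF3 and HF4. Cst11 stood at 6.66 in STD and 1.42 in HF4-REV, while the other 6 extracts lay between -0.24 and 0.07 and no pair of HF4, HF3, HF1 and HF0 passed the test. Rnase10 had 6.46 in STD and 0.62 in HF4-REV, and its lowest values were -0.64 in HF1-REV and -0.74 in HF3-REV. Spink12 had 5.16 in STD, then 1.44 in HF1, 0.54 in HF4, 0.30 in HF3, -0.10 in HF3-REV, -0.84 in HF0, -1.41 in HF4-REV and -2.42 in HF1-REV. HF4 and HF3, neighbours in that order, differed by 0.23 ± 0.30 for Spink12. Adam7 followed with 3.87 in STD, values between 0.35 and 0.39 in HF1, HF3 and HF4, and values between -1.69 and -0.72 in HF0 and the 3 reversal groups. HF4-REV, a single extract, had the value nearest to STD for Cst11, Cstdc2, Defb20 and Rnase10, and lay below HF4 for Spink12 and Adam7. For Rnase10, HF4 against HF4-REV did not pass in limma's fit over both experiments (-0.50 ± 0.26). The members were chosen on STD, so this ranking is a description.

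**Figure D4:**
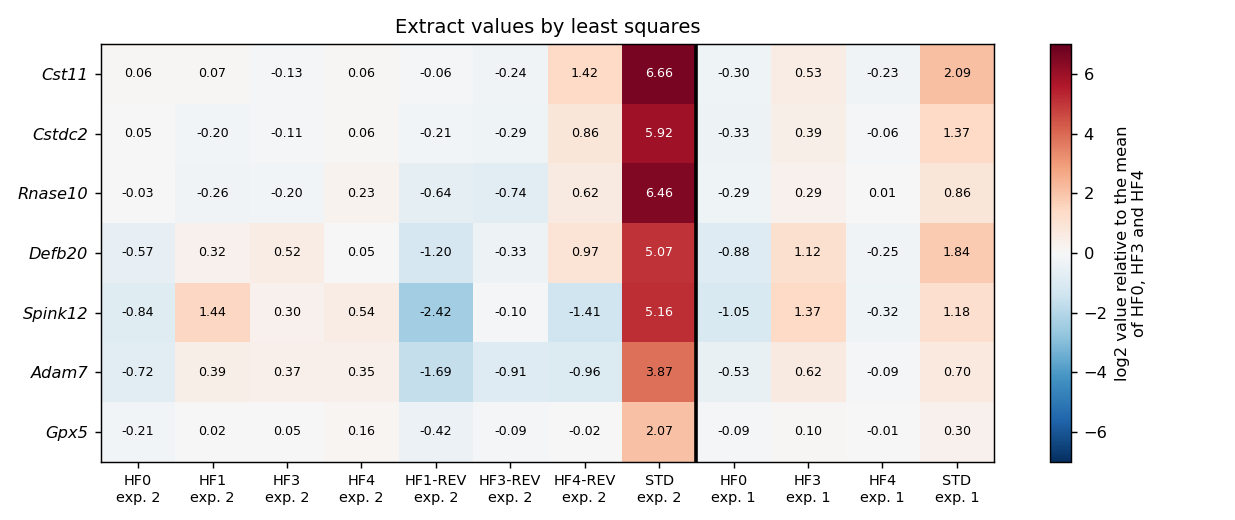
Least squares log2 value of each gene (rows) in each extract (columns), relative to the mean of HF0, HF3 and HF4 of the same experiment, with experiment 2 left of the black line and experiment 1 right of it. STD of experiment 2 is highest for every gene, from 2.07 for Gpx5 to 6.66 for Cst11, and HF1-REV is lowest for Spink12 at -2.42.

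The members thus did not vary as 1 block. Over the 12 pairings without STD, which share extracts and arrays' processing, Spink12 and Adam7 correlated with r = 0.89, Spink12 and Gpx5 with 0.83 and Cstdc2 and Rnase10 with 0.81. Cst11 correlated with Cstdc2 at 0.70 but with Spink12 at -0.18 and Adam7 at -0.17. Defb20 lay between, at 0.41 with Cst11 and 0.59 with Spink12. Cst11 was at -1.36 in HF4 with HF4-REV and between -0.21 and 0.37 in the other pairings without STD. The correlations of Cst11 thus rest largely on HF4 with HF4-REV. With the STD pairings included all 21 pairs of members correlated at 0.71 or more over 16 pairings. The members were chosen on HF0 with STD, so nothing is read from those higher correlations. The division of the members without STD was noticed in the data and has no test.

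Of the 3 listed epididymis genes farthest from 0 in HF0 over STD, Lcn8 and Lcn9 correlated with Cst11 (0.87 and 0.78), and Ly6g5c stayed near 0 in HF1 over HF1-REV and HF4 over HF4-REV. Lcn8 and Lcn9, lipocalins of the mouse initial segment, were at -5.46 and -5.49 in HF0 over STD in experiment 2. Among the 12 pairings without STD, Lcn8 was at -1.66 in HF4 over HF4-REV and between -0.35 and 0.31 in the others. The correlations of Lcn8 and Lcn9 with Cst11 thus rest largely on that pairing, where Lcn9 was at -0.82. Lcn8 correlated over the 12 pairings with Cst11 (0.87), Cstdc2 (0.86) and Rnase10 (0.69), but not with Spink12 (-0.30). It passed in HF4 against HF4-REV at -1.79 ± 0.25 (adjusted p = 0.00693 by limma), as did Lcn9 at -0.89 ± 0.22 (adjusted p = 0.0348). Ly6g5c, at -4.83 in HF0 over STD, was at 0.13 in HF1 over HF1-REV and at 0.03 ± 0.17 in HF4 against HF4-REV (adjusted p = 0.923). Rnase9, an epididymal member of the ribonuclease A family, correlated with Spink12 (0.96), Adam7 (0.94) and Gpx5 (0.81), but with Cst11 at -0.20. It was at -4.32 in HF0 over STD in experiment 2 and 2.98 in HF1 over HF1-REV, and it passed in HF3 against HF0 (1.64 ± 0.29, adjusted p = 0.0452) and HF4 against HF4-REV (1.35 ± 0.38, adjusted p = 0.0488). The beta defensin gene Defb12 (-5.09 in HF0 over STD, 3.20 in HF1 over HF1-REV) and Spink8 (-4.14 and 4.47) were like Rnase9 in these pairings. These genes were singled out after their values had been seen. The HF0 with STD ratios by which they were named enter their tests, and no fit without those arrays is given for them.

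Of 29 genes listed as epididymal beside the members, 19 were on the array. In HF0 over STD 17 of the 19 were negative and 1 positive past 1 log2 unit on all arrays of experiment 2 (median -4.10). In experiment 1 these were 9 and 1 (median -0.77). Of all features 3.29% lay past this limit in experiment 2 and 0.581% in experiment 1. This list and the other marker lists below were chosen with earlier results of these data known. Nothing is therefore read from their counts in HF0 over STD. In limma's fit over both experiments 7 passed on the positive and 2 on the negative side in HF4 against HF4-REV (median 0.40). The 7 were Aqp9, Cst13, Cuzd1, Eppin, Lcn5, Rnase9 and Wfdc15a, and the 2 were Lcn8 and Lcn9. In HF4 against HF0 5 passed, all positive (median 0.36), and in HF3 against HF0 2, both positive (median 0.60). The medians of all features lay between -0.04 and 0.01 in these 3 comparisons. Of all features 21.2% passed in HF4 against HF4-REV, 5.83% in HF4 against HF0 and 2.46% in HF3 against HF0. None passed in HF1 against HF0 (0% of features) or HF1 against HF1-REV (0.00437%). There experiment 2 alone called 6 in each, all positive, against 15.8% and 0.647% of features. Cst13 was called in HF4 against HF4-REV and in HF4 against HF0. Its mean in HF0 over STD of experiment 1, 1.19, was the highest of the list. In HF4 over HF4-REV it was at 2.90, where the germ cell genes described next had a median of 4.82. The part of testis cell RNA in the calls of this list was not tested.

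Male germ cell genes also differed in some of these contrasts. All 16 germ cell markers were measured, led by Tnp2, Tnp1 and Prm1, which encode proteins of sperm chromatin. Their median was -3.16 in HF0 over STD in experiment 2 and -0.01 in experiment 1, with genes between -4.90 and -0.34, and between -0.34 and 0.98. It was 1.62 in HF1 over HF1-REV, 3.05 in HF3 over HF3-REV and 4.82 in HF4 over HF4-REV. Of the 16, 15 passed on the positive side in HF4 against HF4-REV and in HF3 against HF0, against 21.2% and 2.46% of features. Over all 16 pairings the germ cell median correlated with the members between 0.58 (Cst11) and 0.71 (Adam7), and over the 12 pairings without STD between -0.50 (Cst11) and 0.14 (Adam7). The part of germ cell RNA in the members' values was not tested. Markers of the seminal vesicle and prostate, 13 genes that include Svs4, Sbp and Sva, had a median of 0.10 in HF0 over STD of experiment 2. Of them 0 lay past 1 log2 unit on all arrays, against 3.29% of features.

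Gene lists of other cell types were also read in HF0 over STD of experiment 2, with the 3 genes farthest from 0 in brackets. The median was -1.87 for 6 smooth muscle genes (Acta2 -2.80, Actg2 -2.70, Myh11 -2.00), -0.99 for 6 endothelial genes (Tie1 -1.25, Kdr -1.21, Vwf -1.18) and -0.53 for 9 adipocyte genes (Cidec -1.67, Retn -1.46, Adipoq -1.39). It was 0.85 for 7 macrophage genes (Mmp12 3.16, Lgals3 1.93, Cd68 1.07), 0.32 for 6 mesothelial genes (Upk3b 0.77, Upk1b 0.46, Msln 0.42) and -0.40 for 8 genes of Sertoli and Leydig cells (Cst9 -2.21, Cldn11 -2.08, Star 1.26). Past 1 log2 unit on all 4 arrays were 4 smooth muscle genes, 2 adipocyte, 2 macrophage and 2 Sertoli and Leydig genes. No endothelial or mesothelial gene was, against 3.29% of all features. In experiment 1 the medians were 0.39 for smooth muscle, 0.43 for endothelial and -0.96 for mesothelial genes, each with the other sign. They were -0.26 for adipocyte, 0.09 for macrophage and 0.03 for Sertoli and Leydig genes. The part of these cell types in the members' values was not tested.

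Relatives of the members were compared with them by family and by position. For the counts of families below, 3.29% of all features lay past 1 log2 unit on all arrays of HF0 with STD in experiment 2. Cst11 and Cstdc2 lie in a cluster of 10 cystatin genes on chromosome 2, of which 9 had probes. In chromosomal order, HF0 over STD in experiment 2 was -1.24 for Cstl1, -6.59 for Cst11, -0.66 for Cstdc1, -4.47 for Cst12, -2.36 for Cst13, -2.21 for Cst9, -5.88 for Cstdc2, 0.27 for Cst3 and 0.08 for Cst10. Cst3, which encodes cystatin C of many tissues, and Cst10 stayed near 0 next to Cstdc2 in this pairing. Cst9 was also on the list of Sertoli and Leydig cell genes, whose median in HF4 over HF4-REV was 0.88, beside 4.82 for the germ cell genes. The part of testis cell RNA in the values of these cystatins was not tested. Cst13 and Cst9 went the other way from Cst11 in HF4 against HF4-REV, at 2.65 ± 0.43 (adjusted p = 0.011) and 1.72 ± 0.31 (adjusted p = 0.0143), and so did Cstl1 (mean 1.48 on its arrays). Cst3 was called with the sign of Cst11 (mean -0.65). Thus 3 of the 13 other cystatins passed on the positive side and 1 on the negative in limma's fit over both experiments, against 21.2% of features. Cst12 was at 1.01 ± 0.15 in HF4 against HF0 (adjusted p = 0.00878), where Cst11 was at 0.04 ± 0.25. Over the whole family without the members, 3 of 13 cystatins lay past 1 log2 unit on all arrays of HF0 with STD in experiment 2, all negative (median 0.02).

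**Figure D5:**
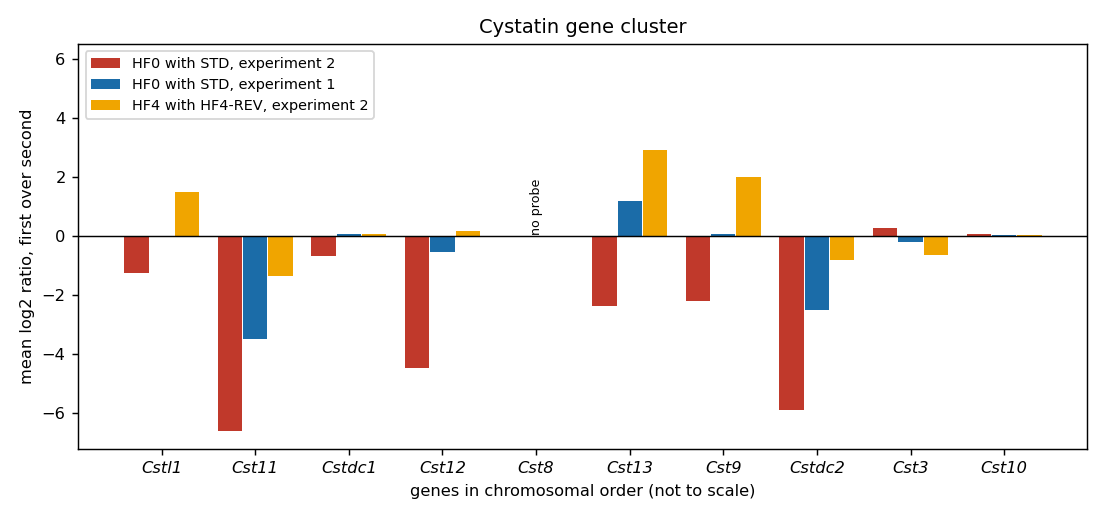
Mean log2 ratio (vertical axis) of HF0 over STD in experiment 2 and experiment 1 and of HF4 over HF4-REV, for the cystatin genes in chromosomal order, not to scale. Cst11 and Cstdc2 are negative in all 3 pairings, while Cst13 and Cst9 are positive in HF4 over HF4-REV at 2.90 and 2.00. Cst9 is also on the list of Sertoli and Leydig cell genes.

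Among 24 other beta defensins, 11 were negative past 1 log2 unit on all arrays of HF0 with STD in experiment 2 (median -1.26), led by Defb12 (-5.09), Defb15 (-4.35) and Defb29 (-4.26). Defb22, which adjoins Defb20 on chromosome 2, was at -0.83 in HF0 over STD of experiment 2 and at 1.41 in HF4 over HF4-REV. Defb29 lies further along the same cluster, with Defb22, Defb26 and Defb28 between it and Defb20. It was positive in HF4 against HF4-REV (1.06 ± 0.30, adjusted p = 0.0496), where Defb20 was at -1.07 ± 0.30. Of the 24, 9 passed there, all positive, against 21.2% of features. Defb20 thus had the sign of Cst11 and not that of the called members of its own family. Rnase10 adjoins Rnase9 on chromosome 14, and both were far from 0 in HF0 over STD (-6.49 and -4.32), but in HF1 over HF1-REV Rnase9 was at 2.98 and Rnase10 at 0.38. Rnase4, a secreted ribonuclease of liver and other tissues in the same cluster, was at 1.27 in HF0 over STD, and Ang4 at 1.29.

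Of 6 other Spink genes, 4 were negative past 1 log2 unit in HF0 with STD of experiment 2 (median -2.02), led by Spink8 (-4.14), Spink10 (-2.93) and Spink5 (-2.59). Of 27 other Adam genes, 5 were negative and 1 positive (median -0.14). Adam3, Adam2 and Adam32, which encode sperm surface proteins made in the testis, had -3.62, -2.89 and -2.63. In HF4 over HF4-REV these 3 were at 5.28, 3.88 and 3.91, and Adam7 at 1.31. Adam28, in the same cluster as Adam7, was at -2.52 and 0.24. None of the 7 other glutathione peroxidase genes lay past 1 log2 unit (median 0.00), with Gpx4 at -0.77, Gpx1 at 0.58 and Gpx6, which adjoins Gpx5, at -0.42. Among 4 other Crisp family genes Crisp2, a testis gene, was at -2.43, Crispld1 at -0.65 and Crispld2 at 0.14.

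The features whose 12 extract values were most like the mean of the members were Slc38a5 (Pearson r = 0.99), Clu (0.98), Tpd52l1 (0.98), Defa31 (0.98), Adam28 (0.98), 1810019D21Rik (0.97), Cad (0.97), Serpinc1 (0.97), Tmem150c (0.97) and Ly6g5c (0.97), among 1019 features that spanned at least 2 log2 units. The STD extract of experiment 2 weighs most in this measure. Clu encodes clusterin, an abundant secreted protein of the epididymis, and was at -2.04 in HF0 over STD. Serpinc1, which encodes antithrombin, was at -5.99, and Slc38a5, an amino acid transporter gene, at -4.61. Adam28 and Ly6g5c were also among the 19 epididymis genes. By the 16 pairing means instead, a measure added after the data had been seen, 5 of the 10 genes were the same.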

How the data were processed

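RNA of mouse epididymal fat was hybridised to 34 two-colour arrays, each with a Cy3-labelled and a Cy5-labelled extract, per the labels. The log2 ratios were deposited by the authors as 1 value per probe and array, from -6.31 to 7.99, with array medians between -0.062 and 0.046 and 0 missing values. The labels do not say how background, normalization and weak spots were handled, nor the numerator or log base. Base 2 was assumed, because base 10 values could not exceed 4.82 on a 16-bit scanner; natural logs remain possible, and folds are not given. With no intensities, the number of arrays limits the precision and dim or saturated spots could not be left out.

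Probes were named through the platform annotation: 21082 had 1 symbol, 30 several and 4232 none, and 20456 symbols were updated to RefSeq by gene ID. Probes of a gene were averaged. Arrays were turned so that the first-named group is on top, and centred on their medians, and dye swaps were averaged. Group values came from least squares within each experiment. limma 3.58.1 (R 4.3.3) was run on the 10 group values without STD, blocked by experiment, and p-values were adjusted over 22879 features by Benjamini-Hochberg (degrees of freedom 2 residual, 4.39 prior). STD group values were left out because the members were chosen on STD, but the arrays of experiment 1 that hold STD still enter its other group values. A fit without those arrays was added after the data had been seen and is given for the members only. Fits on experiment 2 alone used its 11 dye-swap averages (4 residual and 4.22 prior degrees of freedom). Scripts were tested on simulated data, where the fit over both experiments recovered none of the changed genes in HF4 against HF4-REV. In the real data it called 21.2% of features there, so the simulation did not match the data. Python 3.11.15, numpy 2.4.6, pandas 2.3.3 and matplotlib 3.10.9 did the rest.

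The members and lists were chosen with earlier results of these data known. The genes named were all members, the 10 features most like their mean over 12 extract values, and up to 3 genes of each family or marker list with the largest absolute HF0 against STD value in experiment 2. Lcn5, Aqp9, Cuzd1, Eppin and Wfdc15a, the genes adjoining members and Adam28 as a neighbour were named after their values had been seen.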

Additional observations from a re-analysis of the deposited data

Results flagged for a closer look

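Each result here had the opposite sign on every array of the experiments, and the difference itself was not tested. Rnase10 in HF3 over HF0 averaged 0.37 in experiment 1 (0.58 and 0.16) and -0.33 in experiment 2 (-0.39 and -0.27). Adam7 in HF4 over HF0 averaged -0.32 in experiment 1 (-0.37 and -0.27) and 1.15 in experiment 2 (0.73 and 1.56). They were 2 of 28 comparisons of sign between the experiments. In the 7 groups of 4 arrays that could be examined, HF0 with STD of experiment 2 for each gene, 0 arrays stood apart from the others.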

How the results depend on the processing

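The deposited ratios carry no intensities, so limits set by dim spots could not be examined, and HF1, the reversal groups and STD rest on 1 extract an experiment. Causes of the changes below were not tested. Without centring, limma called 319 features in HF4 against HF3 and 32 in HF1 against HF1-REV. Scale normalization gave member medians of -3.87 (experiment 1) and -4.89 (experiment 2) in HF0 against STD, 1 member in HF3 against HF0, 388 features in HF4 against HF3, 29 in HF1 against HF1-REV, and 2067 features and 0 members in HF4 against HF4-REV. Quantile normalization gave medians of -2.98 and -3.25, 36 features and 0 members in HF3 against HF0, 344 features in HF4 against HF3, 0 in HF3 against HF1, 156 and 1 member in HF1 against HF1-REV, and 1489 and 0 members in HF4 against HF4-REV. The fit with STD called 0 features and 0 members in HF3 against HF0, 0 features in HF4 against HF3, HF3 against HF1 and HF1 against HF1-REV, 604 in HF4 against HF1, 20 features and 0 members in HF3 against HF3-REV, and 2563 and 0 members in HF4 against HF4-REV. The fit of experiment 2 alone, added after the data had been seen, called 3091 features and 3 members in HF4 against HF0, 4871 features in HF3 against HF0, 4545 and 1 member in HF4 against HF3, 3609 and 3 in HF1 against HF0, 2638 and 1 in HF3 against HF1, 6370 and 1 in HF4 against HF1, 148 and 3 in HF1 against HF1-REV, 1399 features in HF3 against HF3-REV and 5 members in HF4 against HF4-REV. Without the arrays of experiment 1 that hold STD, also added later, 1 member passed in HF3 against HF0, 0 features in HF4 against HF3 and 0 members in HF3 against HF3-REV.

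Leaving out 1 array at a time gave member medians from -2.57 to -2.18 (HF0 against STD, experiment 1), -6.06 to -5.57 (experiment 2), -1.06 to -0.78 (HF4 against STD) and -0.13 to 0.044 (HF3 against STD, whose sign turned to -0.13 without replicate 2). Features called ran from 1199 to 1418 in HF4 against HF0, 472 to 612 in HF3 against HF0, 34 to 315 in HF4 against HF3, 279 to 706 in HF3 against HF1, 1071 to 1688 in HF4 against HF1, 0 to 691 in HF1 against HF1-REV, 565 to 5111 in HF3 against HF3-REV and 3021 to 8709 in HF4 against HF4-REV. Members called ran from 1 to 2 in HF3 against HF0, 0 to 2 in HF1 against HF1-REV and in HF3 against HF3-REV, and 2 to 5 in HF4 against HF4-REV. HF1 against HF0 gave 0 in each, where 2551 features had an unadjusted p under 0.05 in limma's fit over both experiments. Of 2142 values of single members without 1 array, 2120 kept their side of the threshold, 3 lost it and 19 gained it. The highest counts of the reversal comparisons came without an array of their own pairing, which left a single dye orientation. No paired analysis was possible because replicate numbers only name the arrays of a pairing.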
